A study of Arabidopsis thaliana with 6 samples.

Results

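The genes described here are those of the mitochondrial genome of Arabidopsis thaliana: every row of the count table whose identifier begins with ATMG, 146 of 33602 rows. RNA came from the aerial parts of plants aged 18 days, kept at 22 °C in days of 16 h light and 8 h dark, and 10 µg of it was depleted of ribosomal RNA with a plant leaf kit before sequencing. There was 1 library for each of 6 genotypes: ein5-1 ski2-3, ein5-1, ski2-3, rdr6-11 ein5-1 ski2-3, rdr6-11 and the wild type Col-0. Below, ein5-1 ski2-3 is called the double mutant and rdr6-11 ein5-1 ski2-3 the triple mutant; the mutants carry no other allele or agent in the labels. EIN5 (XRN4) degrades decapped RNA from its 5′ end in the cytoplasm. SKI2 is a helicase that threads RNA into the exosome there for decay from the 3′ end. RDR6 copies RNA into the double strands from which small interfering RNAs are cut. All 3 are known for acting outside the mitochondrion. Without replicates none of the differences was tested: each compares 2 libraries, and the intervals cover counting error only.

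Plant mitochondria keep a small genome for core subunits of the respiratory chain, for cytochrome c maturation proteins, for part of the mitochondrial ribosome, and for ribosomal and transfer RNAs, along with many reading frames of unknown function. Their RNA is transcribed by phage-type polymerases that the nucleus encodes, and is then spliced, edited and trimmed. Transcription is relaxed, and exonucleases such as the mitochondrial polynucleotide phosphorylase set how much of each RNA remains. Several nad transcripts are encoded in separate pieces that are joined by trans-splicing.

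The 146 rows were sorted by a list of genes of known function and by row length. Rows with reads that were neither listed nor of tRNA length (90 bases or fewer) were taken as unassigned reading frames. The genes of known function were 22 rows for subunits of the respiratory complexes (13 for complex I, 1 for complex III, 3 for complex IV and 5 for complex V), 7 for ribosomal proteins, 5 for cytochrome c maturation, 2 for the maturase matR and the transporter mttB, and 3 for rRNA. There were also 85 unassigned reading frames, 15 rows of the length of a tRNA, and 6 rows without a read in any library. The last row, ATMG01170, stood in the list for complex V but could not be linked to a RefSeq gene, and is left out of the complex V values below. Trans-spliced nad1 has 3 rows, and nad2 and nad5 have 2 each, so rows are not all separate genes; a further nad5 row was among those without a read. Of the 85 reading frames, 35 could be linked to a RefSeq name of the TAIR10.1 assembly, and the others are called by their identifier.

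The libraries held between 20205663 reads (Col-0) and 33100379 reads (double mutant). Mitochondrial rows without rrn26 and rrn18 took 1.25% of all reads in the double mutant (95% Clopper-Pearson interval 1.247 to 1.254), 0.993% in ein5-1 (0.989 to 0.997), 0.999% in ski2-3 (0.995 to 1.003), 0.786% in the triple mutant (0.783 to 0.789), 0.792% in rdr6-11 (0.788 to 0.795) and 0.818% in Col-0 (0.814 to 0.821). The share was thus highest in the double mutant, and the 2 rdr6-11 libraries lay just below Col-0. Chloroplast genes took 44.4% (Col-0) to 53.9% (ski2-3) of the reads. In tissue of this kind, fewer mitochondria-rich cells and less mitochondrial RNA per cell cannot be told apart. The leaf gene RBCS1A, for the small subunit of Rubisco, was lowest in the double mutant, the library with the highest mitochondrial share. It had 3168 nuclear RPM there (reads scaled to 1000000 nuclear reads after trimmed-mean normalization), 8762 to 9102 in the other 4 mutants and 5747 in Col-0, and its part in the mitochondrial share was not tested. Each targeted gene was lowest in the libraries labelled with its allele: EIN5 had 22.9 to 36.1 nuclear RPM there and 54.7 to 67.4 elsewhere, SKI2 14.8 to 19.0 against 24.9 to 26.4, and RDR6 11.6 to 13.7 against 28.6 to 39.6.

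Features of the libraries that touch every comparison are given first. The 2 libraries that carry rdr6-11 stand apart in their counts. Among genes of the whole table with 1 to 20 reads, the count was even for 81.4% in the triple mutant and 81.9% in rdr6-11, and for 38.5% to 41.6% in the remaining libraries. Among mitochondrial rows with so few reads it was even for 18 of 28 in the triple mutant, 18 of 26 in rdr6-11, 11 of 24 in the double mutant, 17 of 44 in ein5-1, 22 of 43 in ski2-3 and 24 of 48 in Col-0. Counting intervals may be too narrow in the rdr6-11 libraries, and the rdr6-11 allele and this feature of its libraries cannot be told apart. The comparisons within one kind are ein5-1, ski2-3 and the double mutant over Col-0, and the triple mutant over rdr6-11.

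The rRNA rows separate the libraries in another way. The rrn26 row (ATMG00020, large subunit rRNA) had 3.29 reads per 100 other mitochondrial reads in the double mutant, 3.85 in ein5-1, 3.13 in ski2-3, 8.07 in the triple mutant, 10.7 in rdr6-11 and 57.8 in Col-0. The rrn18 row (ATMG01390, small subunit rRNA) ordered the libraries the same way, with 1.06, 1.48 and 0.931 in the double mutant, ein5-1 and ski2-3, 3.00 and 4.58 in the triple mutant and rdr6-11, and 17.4 in Col-0. Because the kit removes rRNA, these values describe what was left after depletion, and both rows were left out of all scaling below. Here and below RPM stands for reads scaled to 1000000 mitochondrial reads, with rrn26 and rrn18 left out. The rrn5 row (ATMG01380, 5S rRNA) had 1297 RPM in the double mutant, 2903 in ein5-1, 1914 in ski2-3, 7898 in the triple mutant, 8611 in rdr6-11 and 5370 in Col-0. It was thus low in the 3 mutants with the least rrn26 and rrn18, and its log2 ratio of the double mutant over Col-0 was -2.05 (95% counting interval -2.21 to -1.89). All scaled values from here on are in this unit.

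Many mitochondrial genes have a near-identical copy in the nuclear genome, in the mitochondrial insertion of chromosome 2. In TAIR10.1, 15 of the 22 respiratory rows, 5 of the 7 ribosomal protein rows and 28 of the 35 linked reading frames matched nuclear sequence over at least 90% of their length, at 95% identity or more. Of those 35 frames, 21 were linked through a RefSeq note on a chromosome 2 copy. For these a nuclear match is part of how they were linked. The reads of a gene and its copy were divided between both rows of the table. In the 44 pairs that RefSeq notes name, the chromosome 2 row held 50.4% (ski2-3) to 53.9% (rdr6-11) of the summed reads of both. Over the 32 pairs with at least 100 reads in every library the share ran from 2.14% (the ccmFC pair) to 97.4% (the ORF122A pair), and within a pair it spanned a median of 7.82 and at most 28.6 percentage points over the libraries. The values below are those of the mitochondrial row alone. Reads of the mitochondrial gene and of its copy cannot be told apart.

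Respiratory complex genes dominated the mitochondrial reads. They took 67.1% in the double mutant (95% Clopper-Pearson interval 67.0 to 67.3), 63.3% in ein5-1 (63.1 to 63.5), 61.2% in ski2-3 (61.0 to 61.4), 73.0% in the triple mutant (72.8 to 73.2), 73.1% in rdr6-11 (72.9 to 73.2) and 65.2% in Col-0 (64.9 to 65.4). Ribosomal protein genes took 9.85%, 9.18% and 8.44% in the double mutant, ein5-1 and ski2-3, then 7.29% and 8.36% in the triple mutant and rdr6-11, and 8.34% in Col-0. Unassigned reading frames took 17.9% in the double mutant, 22.3% in ein5-1, 25.5% in ski2-3, 12.6% in the triple mutant, 11.5% in rdr6-11 and 21.2% in Col-0. A single reading frame made most of that spread, as the plot of mitochondrial reads by class shows: ATMG00280 held 13.4% of the mitochondrial reads in ski2-3 but 0.296% in rdr6-11.

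**Figure D1:**
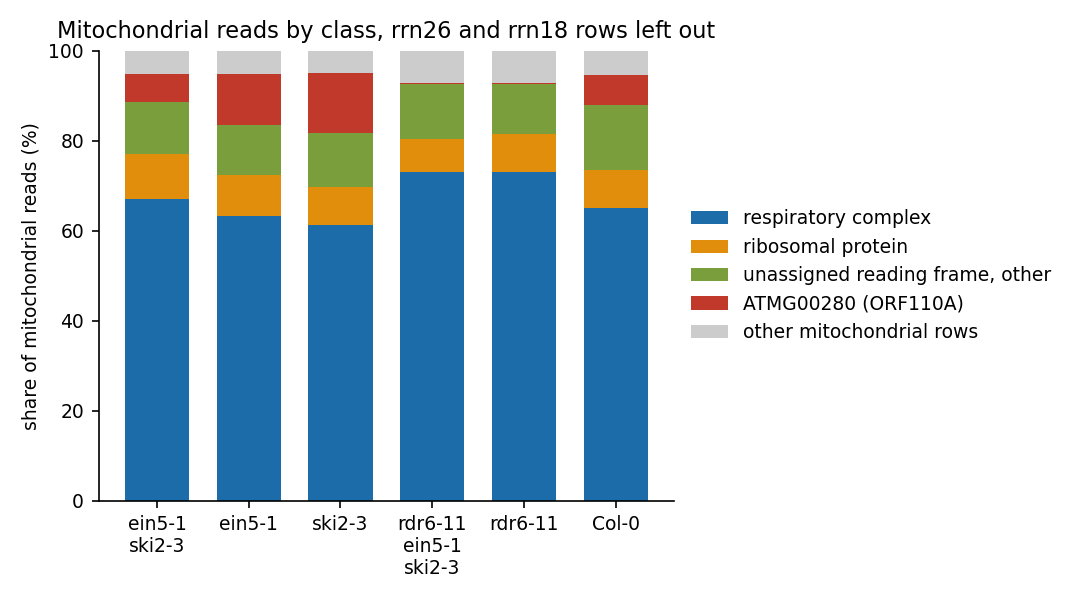
Share of mitochondrial reads (percent, rrn26 and rrn18 rows left out) by class in the 6 libraries, 1 bar per library, with the reading frame ATMG00280 drawn apart from the other reading frames. Respiratory complex genes make 61.2% to 73.1% of each bar, and ATMG00280 makes 13.4% in ski2-3 but 0.332% and 0.296% in the triple mutant and rdr6-11.

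Per kilobase of row length, which includes introns, subunits of the ATP synthase and of cytochrome c oxidase led among the genes of known function. The reading frame ATMG00280 had a higher median over the 6 libraries, 194348 RPM per kilobase against 169620 for atp9, but ran from 8903 in rdr6-11 to 401353 in ski2-3. The atp9 row (ATMG01080, the ring subunit of ATP synthase) had 187557 RPM per kilobase in the double mutant, 183616 in ein5-1, 182404 in ski2-3, 153105 in the triple mutant, 153272 in rdr6-11 and 156835 in Col-0, above every other gene of known function in all 6. Next came cox1 (ATMG01360, the catalytic subunit of cytochrome c oxidase) with 56531 to 78549, atp4 (ATMG00640, a stalk subunit) with 54890 to 78201 and atp1 (ATMG01190, the alpha subunit) with 55269 to 62544, whose ranges overlap. The median level per kilobase was 59889 among the 5 complex V rows, 27712 among the 3 of complex IV, 5681 among the 13 of complex I, 8845 among the 7 ribosomal protein rows, 3250 among the 5 cytochrome c maturation rows and 427 among the 85 reading frames. Complex I rows with long introns (nad1, nad2, nad4, nad7) are divided by lengths that hold much intron. The lowest gene of known function was ccmC (ATMG00900), at 1135 to 1782.

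**Figure D2:**
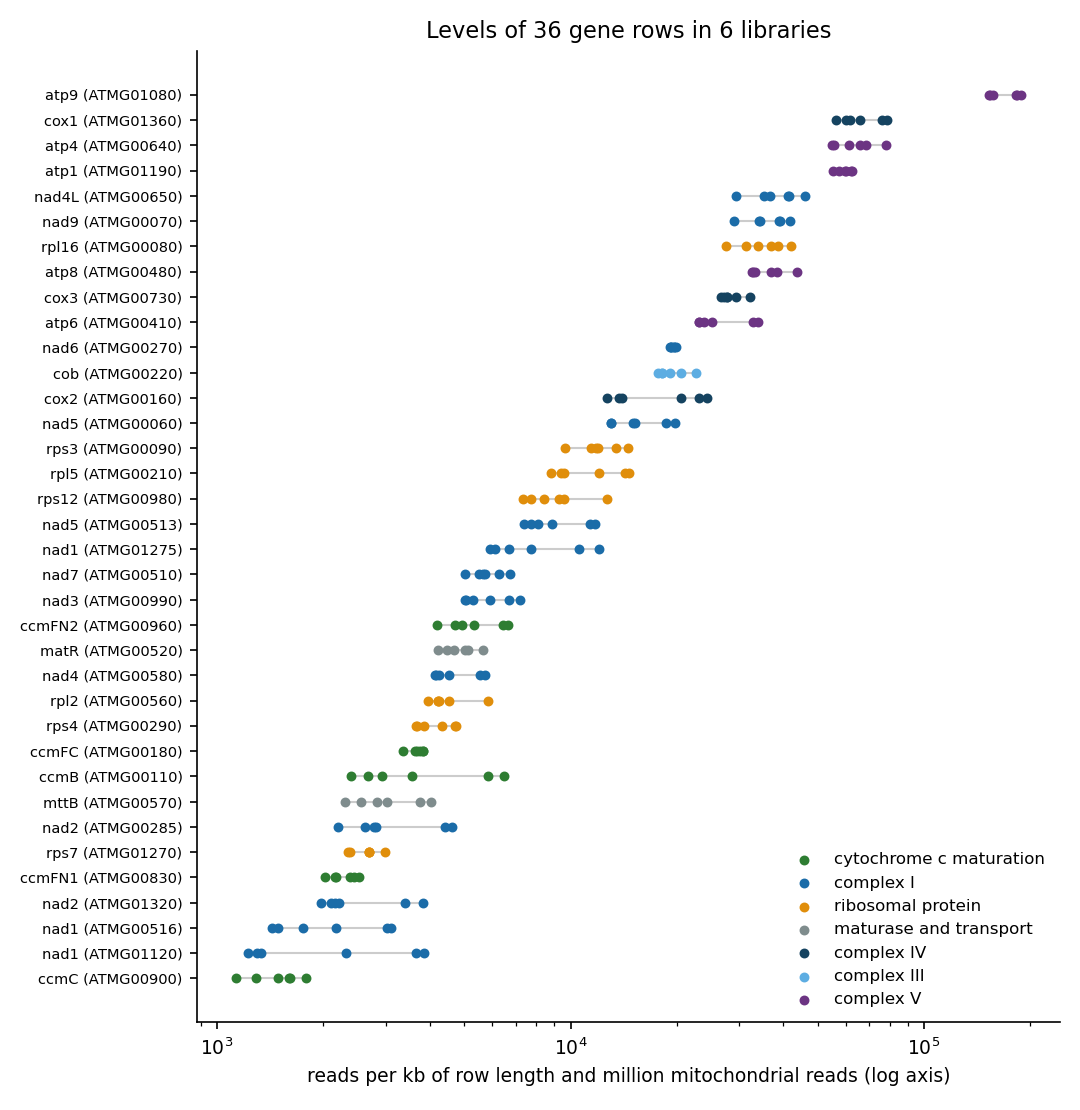
RPM per kilobase of row length (log axis) for the 36 rows of genes of known function apart from rRNA, ordered by their median, with 1 point for each of the 6 libraries. The atp9 row stands highest at 153105 to 187557, and ccmC lowest at 1135 to 1782.

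By read share, the 10 leading rows were cox1, atp1, atp9, ATMG00280, cox3, rps3, cox2, nad4, atp4 and atp6. The cox1 row alone held 10.5% of the mitochondrial reads in the double mutant, 9.55% in ein5-1, 8.95% in ski2-3, 12.4% in the triple mutant, 12.1% in rdr6-11 and 9.81% in Col-0. The next rows held less: cox3 (ATMG00730) held 3.86% to 4.66%, rps3 (ATMG00090) 3.14% to 4.73%, nad4 (ATMG00580) 3.30% to 4.58%, atp4 3.18% to 4.53% and atp6 (ATMG00410) 3.04% to 4.49%, while atp1 held 8.42% to 9.53% and atp9 7.72% to 9.45%.

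Each gene was then compared between libraries. A row counted as measured with 100 reads or more in the fuller library of the pair, and as risen or fallen where its scaled level differed by 2-fold or more. This sorts by size and tests nothing. A row short of 100 reads in one library entered only through the fuller one, so its low count is part of how it was picked. None of the 22 respiratory, 7 ribosomal protein, 5 cytochrome c maturation and 2 matR and mttB rows passed 2-fold in any mutant over Col-0 or in the triple mutant over rdr6-11. All calls in these comparisons fell on reading frames, rrn5 and 1 row of tRNA length. Leaving out rrn5 and the tRNA-length row, the double mutant over Col-0 had 5 rows higher and 4 lower among 71 measured, 12.7%. The same rule called 15.7% of all 15248 measured genes of the table, each scaled within its own genome (7.71% higher, 8.02% lower). In ein5-1 over Col-0, 2 of 65 rows fell and none rose, 3.08%, where 3.55% of all genes were called (1.45% higher, 2.1% lower). In ski2-3 over Col-0, 2 rose and 4 fell of 68, 8.82%, where 3.6% of all genes were called (2.16% higher, 1.44% lower). In rdr6-11 over Col-0, 3 rose and 5 fell of 69, 11.6%, where 10.5% of all genes were called (4.85% higher, 5.68% lower). In the triple mutant over Col-0, 3 rose and 3 fell of 69, 8.7%, where 10.8% of all genes were called (6.17% higher, 4.62% lower).

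The triple mutant over rdr6-11 had 1 row higher and none lower of 71, 1.41%, the same share as the 1.41% of all genes (1.14% higher, 0.27% lower). The double mutant over the triple mutant, a comparison across both kinds of library, had 5 rows higher and 8 lower of 74, 17.6%, where 23.3% of all genes were called (10.8% higher, 12.5% lower). In comparisons added after seeing the data, the double mutant had 4 rows higher and 1 lower of 70 over ein5-1, 7.14%, where 12.6% of all genes were called (6.09% higher, 6.55% lower). Over ski2-3 it had none higher and 2 lower of 70, 2.86%, where 13.3% of all genes were called (6.21% higher, 7.05% lower). The mitochondrial share was above that of all genes in ski2-3 over Col-0, on 6 rows, close to it in ein5-1 and rdr6-11 over Col-0 and in the triple mutant over rdr6-11, and below it in the others.

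The classes moved little against each other within one kind of library. In the double mutant over Col-0 the median log2 ratio was -0.003 for respiratory, 0.19 for ribosomal protein and -0.02 for reading frame rows, with ranges of -0.84 to 0.65, -0.15 to 0.79 and -3.91 to 1.83; the median of all measured genes of the table was 0.01. In ein5-1 over Col-0 the medians were -0.05, 0.17 and 0.08 in that order of classes (all genes 0.05), and in ski2-3 over Col-0 -0.10, -0.02 and 0.02 (all genes 0.02). In the triple mutant over rdr6-11 they were 0.04, -0.18 and -0.12 (all genes 0.04). Ribosomal protein rows were thus above respiratory rows by 0.20 in the double mutant, 0.22 in ein5-1 and 0.08 in ski2-3 over Col-0, and below them by a difference of -0.22 in the triple mutant over rdr6-11. The sign of a class median depends on the scaling, since scaling to nuclear genes adds 0.25, 0.10 and 0.36 to every ratio of the double mutant, ein5-1 and ski2-3 over Col-0; a difference between classes is the same under each scaling.

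Across the kinds of library the ribosomal protein rows lay further from the respiratory rows, and the reading frames did not. Over Col-0, respiratory rows had a median of 0.39 in rdr6-11 and 0.32 in the triple mutant, ribosomal protein rows -0.06 and 0.03, and reading frames 0.33 and 0.18 (all genes -0.03 and 0.01). In the double mutant over the triple mutant the medians were -0.23, 0.59 and -0.34 (all genes 0.01), so that ribosomal protein rows stood 0.82 above respiratory rows. With the reads of the chromosome 2 copies added, an alternative chosen after seeing the data, this difference was 0.51. In rdr6-11 over Col-0 the same addition brought ribosomal protein minus respiratory rows to -0.18, against -0.45 for the mitochondrial rows alone, and turned the sign of reading frame minus respiratory rows, at 0.08 against -0.06. These values compare libraries that differ in their counting as well as in genotype, and the part of the counting was not tested.

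**Figure D3:**
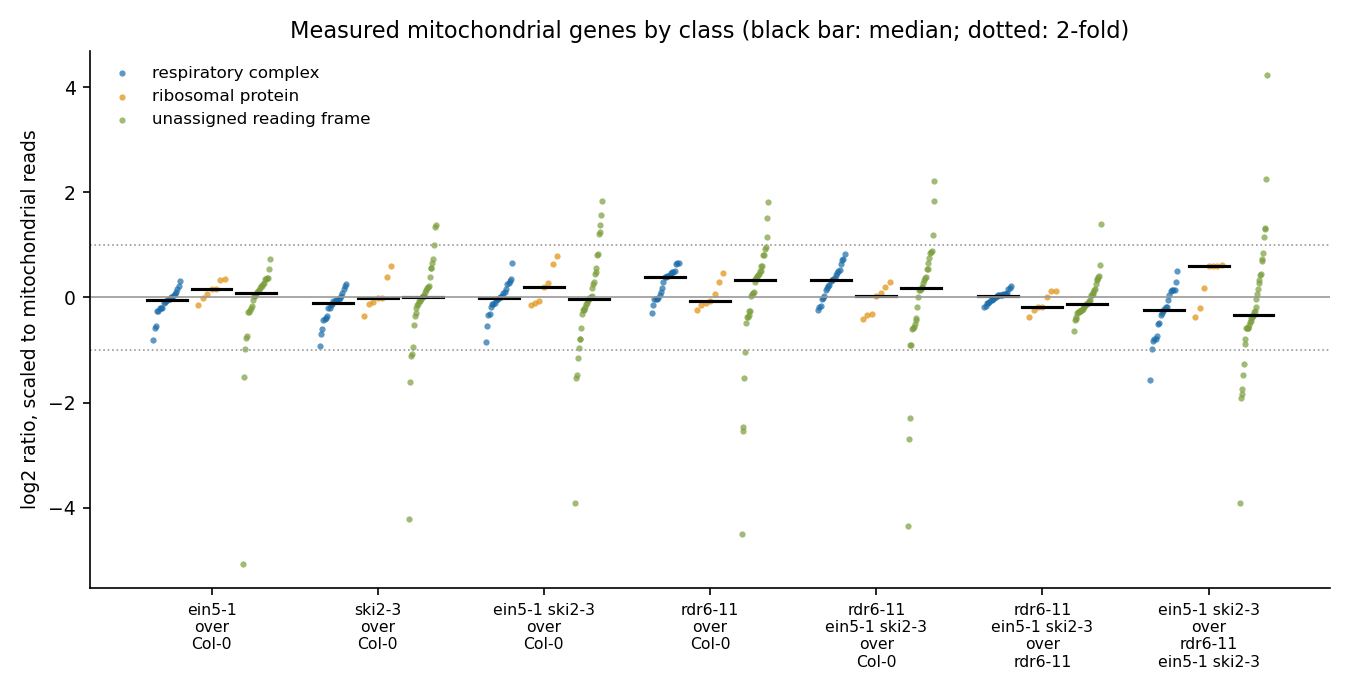
Log2 ratios scaled to mitochondrial reads for each measured respiratory complex, ribosomal protein and unassigned reading frame row (1 point per row) in 7 comparisons, with black bars at class medians and dotted lines at 2-fold. Respiratory and ribosomal protein points stay between the dotted lines in the first 6 comparisons, and the reading frames spread from -5.06 (ATMG00860, ein5-1 over Col-0) to 4.23 (ATMG00280, double mutant over triple mutant).

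Within complex I, the NADH dehydrogenase that feeds electrons into the chain, the rows moved apart. The nad4L row (ATMG00650, a small membrane subunit) had 13917 RPM in the double mutant, 11094 in ein5-1, 10663 in ski2-3, 12545 in the triple mutant, 12502 in rdr6-11 and 8881 in Col-0. It was the highest respiratory row over Col-0 in the double mutant (log2 ratio 0.65, interval 0.57 to 0.73), in ein5-1 (0.32) and in ski2-3 (0.26), with Col-0 the lowest of the 6 libraries. The nad7 row (ATMG00510, a subunit of the peripheral arm) ran the other way, highest in Col-0 and lowest in ski2-3. It had 38199 RPM in the double mutant, 34357 in ein5-1, 30686 in ski2-3, 34761 in the triple mutant, 33458 in rdr6-11 and 40948 in Col-0. It was the lowest respiratory row over Col-0 in the triple mutant (-0.24) and in rdr6-11 (-0.29).

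The trans-spliced pieces of nad1, a membrane subunit, shared a pattern. The ATMG01120 piece had 1515 RPM in the double mutant, 1551 in ein5-1, 1425 in ski2-3, 4494 in the triple mutant, 4274 in rdr6-11 and 2712 in Col-0. It was the lowest respiratory row over Col-0 in the double mutant (-0.84, interval -1.02 to -0.66), ein5-1 (-0.81) and ski2-3 (-0.93), short of 2-fold in each. Over the triple mutant the double mutant fell past it, at -1.57 (-1.71 to -1.43), the only respiratory row to do so in that comparison; with all reads of the library as divisor the ratio was -0.90, short of 2-fold. The ATMG01275 piece had ratios of -0.33, -0.21 and -0.39 in the double mutant, ein5-1 and ski2-3 over Col-0, and the ATMG00516 piece -0.31, -0.54 and -0.59. The mitochondrial rows of all 3 pieces were thus lowest in those mutants, intermediate in Col-0, and highest in both rdr6-11 libraries. The chromosome 2 copy of ATMG01275, with 74.2% to 86.0% of the reads of that pair, did not share the fall. Its ratios over Col-0 were 0.20, 0.49 and 0.43 in the double mutant, ein5-1 and ski2-3, and 0.37 and 0.25 in the triple mutant and rdr6-11.

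The maturase gene matR (ATMG00520), whose protein takes part in intron splicing, is known to lie in an intron of nad1. It was above Col-0 in the double mutant, ein5-1 and ski2-3, where the nad1 pieces were below it. It had 11404 RPM in the double mutant, 9482 in ein5-1, 10367 in ski2-3, 9029 in the triple mutant, 10154 in rdr6-11 and 8542 in Col-0, a log2 ratio of 0.42 (0.33 to 0.50) in the double mutant over Col-0. In rdr6-11 over Col-0 both were higher, matR by 0.25 and the nad1 pieces by 0.46 to 0.66, and in the triple mutant matR was 0.08 above Col-0 (-0.02 to 0.18). The matR row held more reads than the nad1 piece ATMG00516 in 4 of the 6 libraries, for example 4720 against 2769 in the double mutant.

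The nad2 pieces separated the kinds of library instead. ATMG01320 had 11564 RPM in the double mutant, 10980 in ein5-1, 10277 in ski2-3, 19894 in the triple mutant, 17775 in rdr6-11 and 11272 in Col-0, and was the highest respiratory row over Col-0 in the triple mutant (0.82) and in rdr6-11 (0.66). The other piece, ATMG00285, had ratios of 0.71 and 0.64 there. Over Col-0, ATMG01320 and ATMG00285 had ratios of 0.04 and -0.02 in the double mutant, -0.04 and -0.10 in ein5-1, and -0.13 and -0.36 in ski2-3. The nad5 rows (ATMG00513 and ATMG00060) had ratios of -0.13 and 0.02 in the double mutant over Col-0, and 0.36 and 0.31 in the triple mutant over Col-0.

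In complex III, cob (ATMG00220), apocytochrome b, had 26718 RPM in the double mutant, 21482 in ein5-1, 22587 in ski2-3, 24221 in the triple mutant, 20915 in rdr6-11 and 21424 in Col-0. It was higher in both mutants that carry ein5-1 and ski2-3 together than in their own background, by 0.32 (0.26 to 0.37) in the double mutant over Col-0 and 0.21 (0.16 to 0.27) in the triple mutant over rdr6-11, where it was the highest respiratory row. Both differences are well under 2-fold. The chromosome 2 copy of cob held 60.8% to 69.6% of the reads of the pair. Its ratios in the same comparisons were 0.26 and 0.04, so the second rise was on the mitochondrial row alone.

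The complex IV subunits differed from each other. The cox2 row (ATMG00160, the subunit that takes electrons from cytochrome c) had 29743 RPM in the double mutant, 29104 in ein5-1, 26944 in ski2-3, 51592 in the triple mutant, 49132 in rdr6-11 and 43557 in Col-0. Its log2 ratio over Col-0 was -0.55 in the double mutant (-0.59 to -0.51), -0.58 in ein5-1 and -0.69 in ski2-3, and 0.24 in the triple mutant. The double mutant, ein5-1 and ski2-3 formed the low end for cox2, as for the nad1 pieces, rrn5, rrn26 and rrn18; the part of rRNA depletion in these values was not tested. By contrast cox1 (0.09, -0.04 and -0.13) and cox3 (0.27, 0.06 and 0.02) were close to Col-0 or above it in the same mutants.

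In complex V, the ATP synthase, the atp4 row was higher in the libraries without rdr6-11, and the atp9 row in the double mutant, ein5-1 and ski2-3. The atp4 row had 45278 RPM in the double mutant, 38148 in ein5-1, 39673 in ski2-3, 31781 in the triple mutant, 32256 in rdr6-11 and 35536 in Col-0, and was the highest respiratory row of the double mutant over the triple mutant (0.51, 0.47 to 0.55). The atp9 row had log2 ratios over Col-0 of 0.26 in the double mutant, 0.23 in ein5-1, 0.22 in ski2-3 and -0.03 in both rdr6-11 libraries. Its chromosome 2 copy, with 45.2% to 53.1% of the reads of the pair, did not share the rise. The copy had -0.03, -0.07 and -0.15 in the double mutant, ein5-1 and ski2-3. The atp6 row, the proton channel subunit, was instead higher in the rdr6-11 libraries. Its ratios over Col-0 were -0.05, 0.07 and -0.05 in the double mutant, ein5-1 and ski2-3, 0.46 in the triple mutant and 0.51 in rdr6-11. The atp8 row (ATMG00480), a small membrane subunit, had 18366 RPM in the triple mutant and 20856 in rdr6-11, and was the lowest respiratory row of that pair (-0.18). The atp1 row had ratios over Col-0 of -0.12, -0.06 and -0.06 in the double mutant, ein5-1 and ski2-3, and of -0.18 and -0.01 in the triple mutant and rdr6-11. A row of complex I was even throughout: nad6 (ATMG00270, a membrane subunit) had 11858 RPM in the double mutant, 12115 in ein5-1, 11796 in ski2-3, 12308 in the triple mutant, 11913 in rdr6-11 and 12102 in Col-0.

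**Figure D4:**
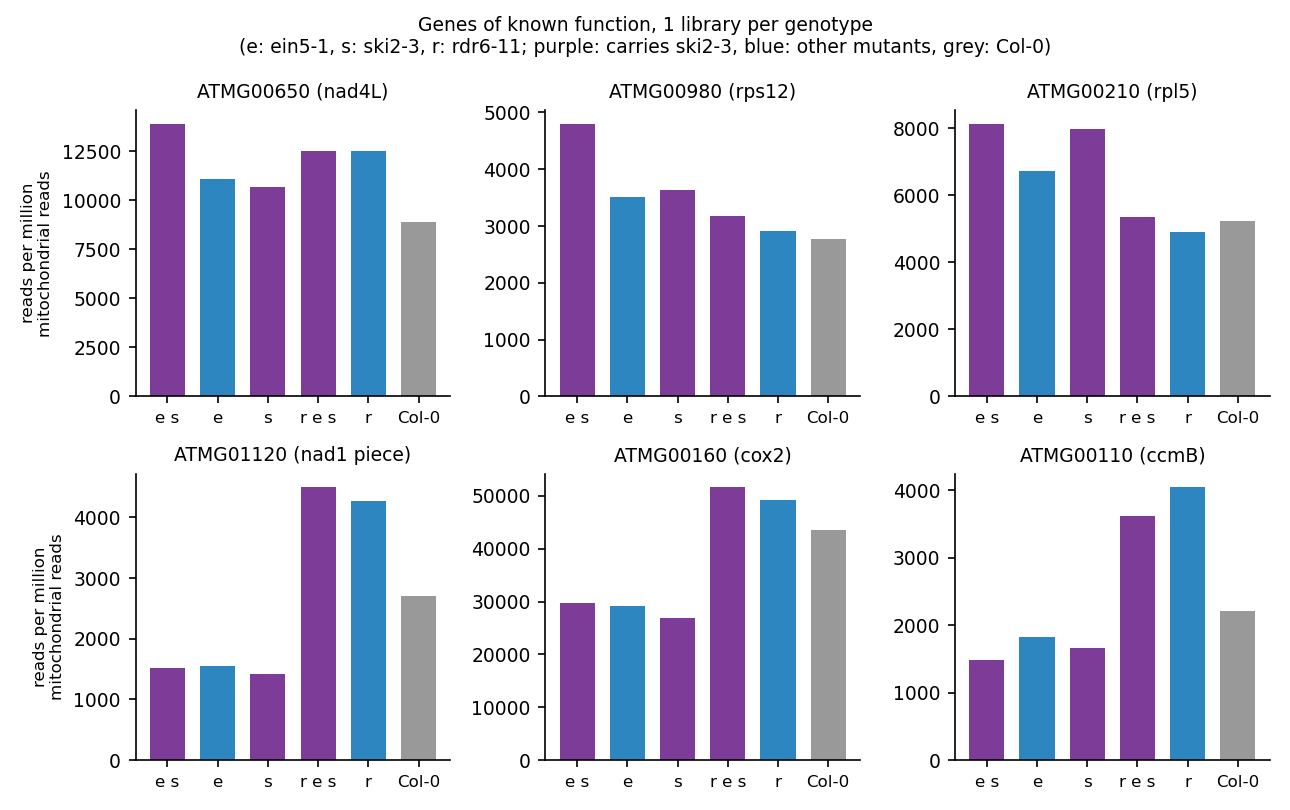
RPM in the 6 libraries for nad4L, rps12, rpl5, the nad1 piece ATMG01120, cox2 and ccmB, 1 bar per library, axes from 0. The nad1 piece, cox2 and ccmB are low in the double mutant, ein5-1 and ski2-3 and high in both rdr6-11 libraries; rps12 and rpl5 are highest in the double mutant, at 4803 and 8145.

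Genes for cytochrome c maturation, which attaches heme to cytochrome c, had median log2 ratios over Col-0 of -0.09 in the double mutant, -0.26 in ein5-1, -0.41 in ski2-3, 0.01 in the triple mutant and 0.07 in rdr6-11. The ccmB row (ATMG00110, a membrane subunit of an ABC transporter) had 1484 RPM in the double mutant, 1820 in ein5-1, 1664 in ski2-3, 3620 in the triple mutant, 4040 in rdr6-11 and 2216 in Col-0. It was within 2-fold of Col-0 in every mutant, but fell in the double mutant over the triple mutant (-1.29, interval -1.44 to -1.14), a call that ended at -0.82 with nuclear scaling. The ccmFN2 row (ATMG00960, part of the heme lyase) was below Col-0 in every mutant and lowest in ski2-3. It had 3950 RPM in the double mutant, 3265 in ein5-1, 2571 in ski2-3, 3021 in the triple mutant, 2893 in rdr6-11 and 4086 in Col-0. The ccmC row (ATMG00900, a heme handling protein) had 1237, 1144 and 875 in the double mutant, ein5-1 and ski2-3, 994 and 1233 in the triple mutant and rdr6-11, and 1374 in Col-0. The ccmFN1 (ATMG00830) and ccmFC (ATMG00180) rows of the heme lyase had ratios over Col-0 of -0.09 and 0.05 in the double mutant, 0.15 and 0.08 in ein5-1, 0.19 and -0.11 in ski2-3, 0.01 and 0.02 in the triple mutant, and 0.23 and 0.07 in rdr6-11. The mttB row (ATMG00570), for a transport protein of the Tat type, had ratios over Col-0 of -0.24, -0.09 and -0.39 in the double mutant, ein5-1 and ski2-3, and 0.31 and 0.42 in the triple mutant and rdr6-11.

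A ribosomal protein gene ranked highest among the genes of known function in the double mutant over Col-0. The rps12 row (ATMG00980) had 4803 RPM in the double mutant, 3504 in ein5-1, 3635 in ski2-3, 3183 in the triple mutant, 2920 in rdr6-11 and 2773 in Col-0, a log2 ratio of 0.79 (0.65 to 0.94) in the double mutant over Col-0. The rpl5 row (ATMG00210) had 8145, 6725 and 7972 in the double mutant, ein5-1 and ski2-3, 5359 and 4904 in the triple mutant and rdr6-11, and 5249 in Col-0, with ratios over Col-0 of 0.63 (0.53 to 0.74), 0.36 and 0.60 in the first 3. Over rdr6-11 the triple mutant had a ratio of 0.12 (-0.03 to 0.28) for rps12 and 0.13 (0.01 to 0.25) for rpl5. The chromosome 2 copies of rps12 and rpl5 had ratios of 0.83 and 0.30 in the double mutant over Col-0.

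The other ribosomal protein rows moved less. The rps3 row had 47315 RPM in the double mutant, 43697 in ein5-1, 38474 in ski2-3, 31399 in the triple mutant, 37228 in rdr6-11 and 38878 in Col-0, and rpl16 (ATMG00080) 22767, 20912, 18364, 14917, 16924 and 19923 in the same libraries. Both were lowest in the triple mutant, and the double mutant was above the triple mutant by 0.59 and 0.61. The rpl2 row (ATMG00560) was highest in rdr6-11, at 15224, against 10259 to 11792 in the other 5, and was the lowest ribosomal protein row of the triple mutant over rdr6-11 (-0.37, -0.44 to -0.30). The rps7 row (ATMG01270) had 1047 to 1332 and rps4 (ATMG00290) 3976 to 5168 over all libraries.

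Unassigned reading frames carried the large differences, and 1 of them, ATMG00690, was higher in each library with ski2-3 than in those without it. ATMG00690 had 22774 RPM in the double mutant, 8943 in ein5-1, 19987 in ski2-3, 27575 in the triple mutant, 10514 in rdr6-11 and 7719 in Col-0. All 3 libraries that carry ski2-3 lay above all 3 that do not. The share of all rows that split the libraries in this way was not counted, and a link to the allele was not tested. It rose in ski2-3 over Col-0 by a log2 ratio of 1.37 (1.28 to 1.46), in the double mutant over Col-0 by 1.56 (1.48 to 1.65) and in the triple mutant over rdr6-11 by 1.39 (1.32 to 1.46), where it was the only mitochondrial row called. In ein5-1 over Col-0 the ratio was 0.21 (0.11 to 0.31). Against the single mutants, the double mutant had 1.35 (1.28 to 1.42) over ein5-1 and 0.19 (0.14 to 0.24) over ski2-3. The row is 723 bases long, the length of ORF240A and of ORF240B in RefSeq, and could not be assigned to one of them. ORF240A overlaps rps19 by 94 bases and matched no nuclear sequence, whereas ORF240B matched over its whole length. The other row of that length, ATMG00810, had 691 in the double mutant, 1021 in ein5-1, 830 in ski2-3, 911 in the triple mutant, 1228 in rdr6-11 and 1199 in Col-0, with no such split.

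The row next to it by number, ATMG00680, was sparse, with 105 reads in the double mutant, 23 in ein5-1, 55 in ski2-3, 58 in the triple mutant, 42 in rdr6-11 and 16 in Col-0. It rose in the double mutant over Col-0 (1.37, 0.62 to 2.25) and was not measured in the other comparisons with Col-0. ATMG00630 rose in the double mutant (179 reads against 30 in Col-0, log2 ratio 1.24, 0.69 to 1.86) and in ski2-3 (113 reads, 1.34, 0.76 to 1.99). ORF143 (ATMG00120, 100 reads against 11, 1.83, 0.96 to 2.91) and ORF205 (ATMG01260, 111 reads against 19, 1.21, 0.51 to 2.01) rose in the double mutant over Col-0. All 4 rows had 30 reads or fewer in Col-0. Over Col-0, ATMG00680, ORF143 and ORF205 reached the minimum of 100 reads only through the double mutant, and ATMG00630 only through it and ski2-3. Their low counts in Col-0 are thus part of how they were picked.

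**Figure D5:**
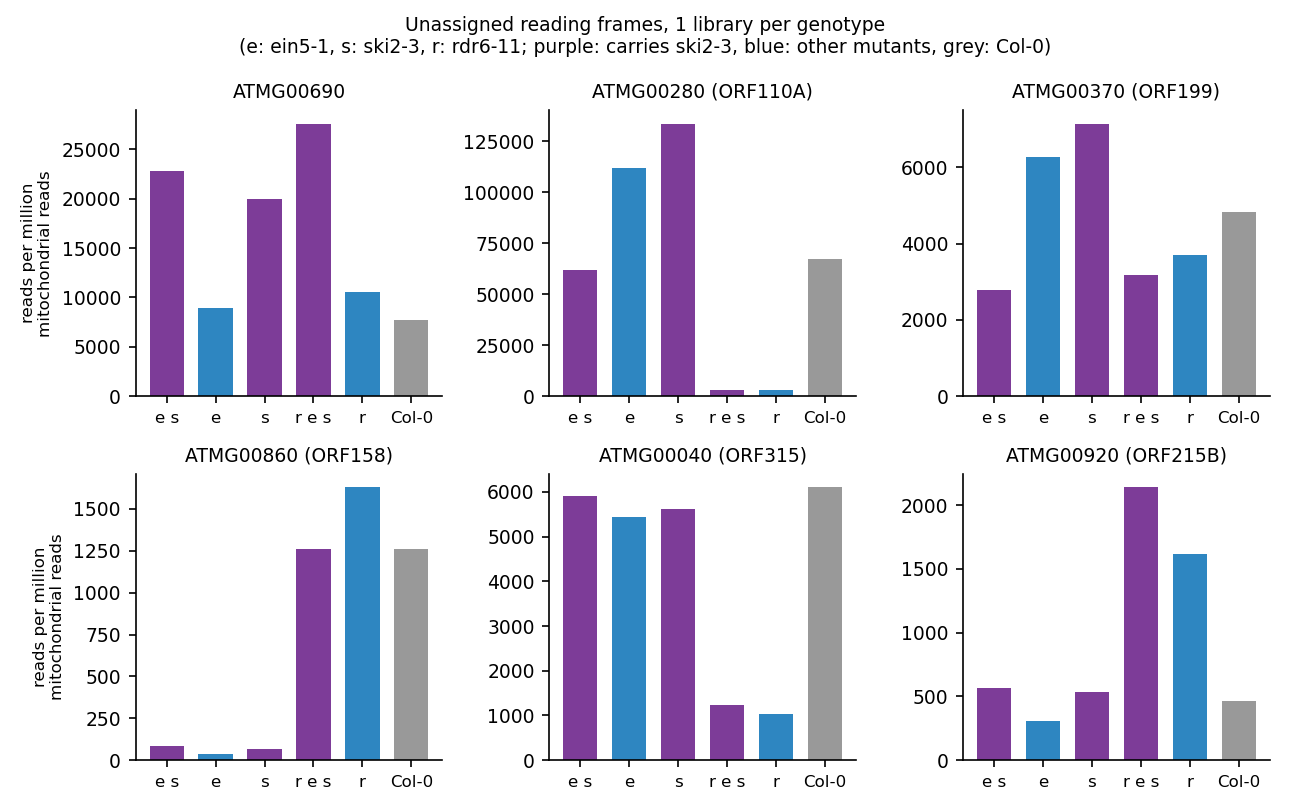
RPM in the 6 libraries for 6 reading frames, 1 bar per library, axes from 0, purple for libraries that carry ski2-3. ATMG00690 is high in all 3 purple bars (19987 to 27575, against 7719 to 10514 elsewhere), ATMG00280 and ATMG00040 are low in both rdr6-11 libraries, and ATMG00860 is near 0 in the double mutant, ein5-1 and ski2-3.

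RefSeq marks parts of 2 linked frames as of chloroplast origin. One of them, ORF110A (ATMG00280), matches the chloroplast genome over 88.6% of its length at 98.3% identity, and the RefSeq note on its chromosome 2 copy names the large subunit of Rubisco. It had 62160 RPM in the double mutant, 111846 in ein5-1, 133651 in ski2-3, 3320 in the triple mutant, 2965 in rdr6-11 and 67276 in Col-0. It fell over Col-0 in the triple mutant (log2 ratio -4.34) and in rdr6-11 (-4.50), and the ratio of the double mutant over Col-0 was -0.11 (-0.15 to -0.08). The chloroplast gene rbcL (ATCG00490) held 3050666 reads in the double mutant, 3334052 in ein5-1, 3665553 in ski2-3, 3741343 in the triple mutant, 3484478 in rdr6-11 and 2130201 in Col-0. Reads on ORF110A came to 0.843%, 0.759% and 0.888% of those on rbcL in the double mutant, ein5-1 and ski2-3, to 0.0213% and 0.0189% in the triple mutant and rdr6-11, and to 0.522% in Col-0. Reads of rbcL that were placed on ORF110A and reads of ORF110A itself cannot be told apart, and neither can the rdr6-11 allele and the counting of its 2 libraries.

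ORF199 (ATMG00370) matches the chloroplast genome over 88.8% of its length at 97.6% identity, and the note on its copy names Ycf1. It had 2791 RPM in the double mutant, 6265 in ein5-1, 7139 in ski2-3, 3166 in the triple mutant, 3712 in rdr6-11 and 4819 in Col-0. Both frames of chloroplast origin were highest in ski2-3 and next in ein5-1, while the double mutant lay below both single mutants, by -1.10 and -0.85 for ORF110A and -1.35 and -1.17 for ORF199 over ski2-3 and ein5-1. In the rdr6-11 libraries ORF199 stayed within 2-fold of Col-0, unlike ORF110A.

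A pair of frames was low in the 3 mutants with the least rRNA. ORF158 (ATMG00860) had 34 reads in the double mutant, 8 in ein5-1, 16 in ski2-3, 303 in the triple mutant, 362 in rdr6-11 and 208 in Col-0. It fell over Col-0 in the double mutant (log2 ratio -3.91, interval -4.51 to -3.41), in ein5-1 (-5.06, -6.39 to -4.15) and in ski2-3 (-4.21, -5.09 to -3.53), the lowest frame in each, and was within 0.37 of Col-0 in both rdr6-11 libraries. ATMG01370 had 343 RPM in the double mutant, 389 in ein5-1, 345 in ski2-3, 1232 in the triple mutant, 1485 in rdr6-11 and 666 in Col-0, short of 2-fold in the first 3 over Col-0, and it rose in rdr6-11 (1.15, 0.84 to 1.48), though short of 2-fold with median-of-ratios scaling (0.87). The rrn26, rrn18 and rrn5 rows were lowest in the same 3 mutants, and their part in these frames was not tested.

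ATMG00030 was highest in Col-0, as rrn26 and rrn18 were and rrn5 was not. It had 20762 RPM in the double mutant, 20908 in ein5-1, 19761 in ski2-3, 9325 in the triple mutant, 10878 in rdr6-11 and 59945 in Col-0. It fell over Col-0 in all 5 mutants, with log2 ratios of -1.53, -1.52 and -1.60 in the double mutant, ein5-1 and ski2-3, and of -2.68 and -2.46 in the triple mutant and rdr6-11. With rRNA in the divisor the first 3 ratios were -0.78, -0.79 and -0.85, short of 2-fold. Its 324 bases are the length of several RefSeq frames, 1 of which, ORF107A, overlaps rrn26 by 185 bases; the row could not be assigned to one. ATMG00490, also of 324 bases, had 190 reads in the double mutant, 147 in ein5-1, 145 in ski2-3, 165 in the triple mutant, 99 in rdr6-11 and 212 in Col-0, with ratios over Col-0 of -1.48, -0.98, -1.10, -0.90 and -1.52. ATMG01040 had 129, 94, 79, 112, 118 and 114 reads in the same libraries, and fell in the double mutant (-1.14, -1.52 to -0.77) and in ski2-3 (-1.08, -1.52 to -0.66). With nuclear scaling both ATMG01040 ratios were short of 2-fold, at -0.89 and -0.72. That scaling adds 0.36 to each ratio of ski2-3 over Col-0, so the ATMG00490 ratio of -1.10 there was short of 2-fold too.

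Other frames separated the rdr6-11 libraries from the rest. ORF315 (ATMG00040) had 5920 RPM in the double mutant, 5435 in ein5-1, 5623 in ski2-3, 1240 in the triple mutant, 1044 in rdr6-11 and 6102 in Col-0, and fell over Col-0 in the triple mutant (-2.30) and in rdr6-11 (-2.54). ORF131 (ATMG00050), which lies wholly within ORF315 over 396 bases, rose in the double mutant over the triple mutant, with 252 reads against 58 (1.33, 0.92 to 1.77), so that these 2 rows are not independent. ORF141 (ATMG00500) had 2322, 2457 and 2103 RPM in the double mutant, ein5-1 and ski2-3, 1290 and 1170 in the triple mutant and rdr6-11, and 2409 in Col-0. It fell over Col-0 in rdr6-11 (-1.04), a call that ended with the reads of its chromosome 2 copy added. That copy held 80.4% to 88.9% of the reads of the pair, and its own ratio in rdr6-11 over Col-0 was -0.18. ORF215B (ATMG00920) ran the other way, with 234 reads in the double mutant, 69 in ein5-1, 130 in ski2-3, 514 in the triple mutant, 360 in rdr6-11 and 76 in Col-0, and rose over Col-0 by 2.21 in the triple mutant (1.87 to 2.58) and 1.81 in rdr6-11 (1.46 to 2.19). ATMG00910 rose in rdr6-11 (112 reads against 29 in Col-0, 1.51, 0.92 to 2.16) and ATMG00450 in the triple mutant (100 against 30, 1.19, 0.59 to 1.84). In these comparisons ORF215B, ATMG00910 and ATMG00450 reached 100 reads only through the rdr6-11 libraries. Their low counts in Col-0 are thus part of how they were picked. The ATMG00910 call ended with the reads of its chromosome 2 copy added (0.59), and the ATMG00450 call with nuclear scaling (0.97). ATMG01210 (54 reads against 106), ATMG00620 (88 against 123) and ATMG00450 (62 against 100) fell in the double mutant over the triple mutant, with ratios of -1.75, -1.26 and -1.46. Each reached 100 reads there only through the triple mutant. The call of ATMG00620 ended with its copy added (-0.91) and with nuclear scaling (-0.80), and that of ATMG00450 with all reads of the library as divisor (-0.80).

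ORF313 (ATMG00590), whose chromosome 2 copy carries a note naming cytochrome b, was high in the double mutant alone. It had 1665 RPM in the double mutant, 786 in ein5-1, 916 in ski2-3, 678 in the triple mutant, 801 in rdr6-11 and 957 in Col-0. It rose in the double mutant over the triple mutant (1.29, 1.05 to 1.55), while the ratio over Col-0 was 0.80 (0.55 to 1.06). ORF117 (ATMG00970) had 974 and 908 in the double mutant and ski2-3, against 454 to 654 in the other 4 libraries, and ORF149 (ATMG00660) had 7814 to 9491 in the 5 mutants, against 6435 in Col-0. ORF118 (ATMG01010) was among the highest frames of ski2-3 over Col-0 (0.66) and ORF161 (ATMG00610) of ein5-1 over Col-0 (0.35). Their chromosome 2 copies held most reads of each pair, 63.5% to 82.1% for ORF118 and 75.1% to 84.3% for ORF161. The copies had ratios of 0.07 and 0.14 in those comparisons. ATMG01350 had ratios of 0.87 and 0.92 in the triple mutant and rdr6-11 over Col-0. ATMG00170 and ATMG01020 were among the lowest frames of the triple mutant over rdr6-11, at -0.63 and -0.30.

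The 15 rows of tRNA length had few reads, in all 56 in the double mutant, 48 in ein5-1, 46 in ski2-3, 227 in the triple mutant, 212 in rdr6-11 and 46 in Col-0. ATMG00700 made most of them in the rdr6-11 libraries, with 10 reads in the double mutant, 11 in ein5-1, 7 in ski2-3, 150 in the triple mutant, 153 in rdr6-11 and 6 in Col-0, a rise of 4.01 (2.95 to 5.57) in the triple mutant and 4.15 (3.09 to 5.71) in rdr6-11 over Col-0. The row that could not be linked, ATMG01170, had 18350, 19335 and 18841 RPM in the double mutant, ein5-1 and ski2-3, 31041 and 27488 in the triple mutant and rdr6-11, and 17974 in Col-0.

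Nuclear genes that build and regulate mitochondria were read beside these, scaled to nuclear genes. The 4 genes for the mitochondrial RNA polymerases and RNA decay (RPOTm, RPOTmp, mtPNPase and RNR1) were all measured and none passed 2-fold in any comparison; their median log2 ratio in the double mutant over Col-0 was -0.06. Of 18 nuclear subunits of the respiratory complexes, none passed in ein5-1, ski2-3 or the double mutant over Col-0 (medians 0.08, 0.22 and -0.29), where 3.55%, 3.6% and 15.7% of all genes were called. In the rdr6-11 libraries, where 10.8% (triple mutant) and 10.5% (rdr6-11) of all genes were called over Col-0, 1 of the 18 passed: CYTC-2, a cytochrome c, rose in the triple mutant (419 reads against 96 in Col-0, 1.37) and in rdr6-11 (336 reads, 1.34). Of 14 splicing and 5′ processing factors, 8 were measured in the triple mutant and 4 in rdr6-11 over Col-0. Among them PMH2, an RNA helicase of mitochondrial splicing, fell in the triple mutant (261 reads against 319 in Col-0, -1.04) and in rdr6-11 (188 reads, -1.23). RPF2, a pentatricopeptide protein of 5′ processing, rose in the triple mutant over rdr6-11 (125 reads against 49, 1.06), where 1.41% of all genes were called. RPF2 reached the read minimum there only through the triple mutant, and CYTC-2 over Col-0 only through the rdr6-11 libraries. Their low counts in the other library are thus part of how they came to be measured. In the double mutant over the triple mutant, where 23.3% of all genes were called, CYTC-2 fell (219 reads against 419, -1.25) and PMH2 rose (797 reads against 261, 1.29).

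Of 7 genes of the mitochondrial stress response, 2 of 6 measured rose and 1 fell in the double mutant over Col-0, where 7.71% of all genes rose and 8.02% fell. HSP23.5, a mitochondrial small heat shock protein, had 194 reads in the double mutant, 42 in ein5-1, 14 in ski2-3, 34 in the triple mutant, 12 in rdr6-11 and 8 in Col-0, and rose in the double mutant over Col-0 (3.47, 2.52 to 4.76). NAC013, a transcription factor of mitochondrial retrograde signalling, had 154 reads in the double mutant, 53 in ein5-1, 45 in ski2-3, 51 in the triple mutant, 21 in rdr6-11 and 33 in Col-0, and rose there too (1.14, 0.60 to 1.74). Both also rose in the double mutant over the triple mutant, HSP23.5 by 2.18 and NAC013 by 1.27. AOX1D, an alternative oxidase, had 41 reads in the double mutant, 83 in ein5-1, 225 in ski2-3, 18 in the triple mutant, 2 in rdr6-11 and 126 in Col-0, and fell over Col-0 in the double mutant (-2.67, -3.24 to -2.17), the triple mutant (-3.52) and rdr6-11 (-6.08, -9.51 to -4.56). In those comparisons AOX1D reached the read minimum only through Col-0, so the same limit holds for its falls.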

How the data were processed

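RNA-seq of 6 libraries, 1 per genotype, was re-analysed. The authors deposited read counts, RPKM (reads per kilobase and per total reads) and log2 ratios of RPKM per gene, per the file headers; the submitters' processing notes name BWA and TAIR9, and whether strand was used is not stated in them. Deposited p-values and false discovery rates (18 columns) were not used. Cells marked as missing were taken as 0 reads.

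Counts were scaled to mitochondrial reads without ATMG00020 and ATMG01390, and log2 ratios took a pseudocount of 0.5 reads. Intervals are exact at the 95% level (Clopper-Pearson, conditional binomial for ratios) and cover counting error only, since PCR reads are not independent molecules. A row was measured at 100 reads in the library with more, and called at 2-fold. With 1 library per genotype no test is given, and no fit that pools genotypes by shared allele was run. Nuclear libraries took trimmed mean of M-values factors (trims 0.3 and 0.05). For the share called among all genes of the table, rRNA and tRNA rows were left out. Scripts were tested on simulated data (Python 3.11.15, numpy 2.4.6, pandas 2.3.3, scipy 1.17.1).

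Names came from the RefSeq annotation of TAIR10.1, which has no ATMG identifiers on its mitochondrial genes: rows were linked by the notes on chromosome 2 copies and by row length (RPKM divided into counts), within 3% for the genes of known function. Shared sequence was found with blastn 2.17.0, with hits of at least 50 bases and 95% identity. Its coordinates are not given, as the reads were mapped to another build. ATMG01170 stood in the complex V list but could not be linked and was kept out of the classes. Named genes were the members of known function that were called, highest or lowest of their class, the 10 rows with most reads, the 5 highest and 5 lowest reading frames of each comparison, the rRNA rows and called nuclear list genes. Members and lists were chosen with earlier results of these data known.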

Additional observations from a re-analysis of the deposited data

How the results depend on the processing

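Counts of members at least 2-fold different, rrn5 and tRNA-length rows included, were 10 in the double mutant, 2 in ein5-1, 7 in ski2-3, 7 in the triple mutant and 9 in rdr6-11 over Col-0, 1 in the triple mutant over rdr6-11 and 15 in the double mutant over the triple mutant. No row called 2-fold different changed sign under any alternative tried; 23 calls were lost with a minimum of 300 reads, 10 with rRNA in the divisor, 9 with all reads of the library as divisor, 9 by the authors' deposited log2 ratios, 6 with median-of-ratios and 6 with nuclear scaling, and 3 with the chromosome 2 copies added (ATMG00910 and ATMG00500 in rdr6-11 over Col-0, at 0.59 and -0.30, and ATMG00620 in the double mutant over the triple mutant). Scaled to all mitochondrial reads with rRNA, the counts over Col-0 were 23, 11, 13, 28 and 33 in the same order of mutants. With a read minimum of 30 they were 11 in ski2-3, 14 in the triple mutant and 22 in rdr6-11 over Col-0, 3 in the triple mutant over rdr6-11 and 26 in the double mutant over the triple mutant. With a minimum of 300 they were 3 in the double mutant, 1 in ein5-1 and 3 in ski2-3 over Col-0, and 9 in the double mutant over the triple mutant. With a 1.5-fold rule they were 20, 8, 17, 21 and 21 over Col-0, 3 in the triple mutant over rdr6-11 and 30 in the double mutant over the triple mutant. Scaled to all reads of the library, and likewise by the authors' deposited log2 ratios, they were 16 in the double mutant over Col-0 and 24 over the triple mutant. A cause beyond the altered divisor or rule was not tested.

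The median of reading frames minus that of respiratory rows was 0.0789 in rdr6-11 over Col-0 (main value -0.06, so that its sign changed), -0.0031 in the triple mutant over Col-0 and -0.27 in the double mutant over the triple mutant with a minimum of 30 reads. With the reads of the chromosome 2 copies added it was 0.0786 in rdr6-11 over Col-0, while the median of ribosomal protein minus that of respiratory rows was -0.18 there and 0.51 in the double mutant over the triple mutant.

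In the order double mutant, ein5-1, ski2-3, triple mutant, rdr6-11 and Col-0, mitochondrial reads without rRNA came to 2.56, 1.97, 2.23, 1.58, 1.72 and 1.87 per 100 nuclear reads. With rRNA left in, mitochondrial rows took 1.30%, 1.05%, 1.04%, 0.873%, 0.912% and 1.43% of all reads, so that Col-0 came highest. Also without the 5 rows with most reads, respiratory rows took 55.9%, 55.1%, 54.1%, 60.1%, 59.9% and 54.8%, ribosomal protein rows 16.3%, 16.1%, 15.2%, 10.9%, 12.6% and 13.4%, and reading frames 19.4%, 19.6%, 21.8%, 18.4%, 16.9% and 23.2%.

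No paired analysis was possible because the groups compared share only 1 replicate number and no result comes from a test; a fit with shared alleles as terms was not run. Of the 85 reading frames, 39 reached 100 reads in any library, so that most could not be compared.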
